A study of Arabidopsis thaliana with 8 samples.

Results

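The 8 actin genes of *Arabidopsis thaliana* were followed here through 4 lists of PIF3-binding peaks, and were 8 of the 27444 protein-coding nuclear genes annotated on the assembly used. For each gene, every peak was taken whose summit (the base of highest tag density) lay between 10 kb upstream of the transcription start site (TSS) and the end of the gene, which gave 11 of the 6828 peaks. The genes were chosen by the measured positions of these peaks, which were known to lie near some of them, so that their peaks, tags and summit positions are given as a description, with no test. Of the 8 genes, 5 had a peak in the window, 3 had a site found in more than 1 replicate, and 3 had no peak. By the definition of the study, applied here to the genes of the assembly used, 2 were PIF3-bound. The name "PIF3-bound" therefore applied to *ACT2* and *ACT7* only, and is not a call taken from the authors' own set of bound genes.

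Peaks came from chromatin immunoprecipitation and sequencing (ChIP-seq) of whole 2-d-old seedlings grown in true darkness, with P3M and WT as the groups and 4 biological replicates of each (8 libraries). P3M seedlings carry PIF3 with a MYC epitope tag, driven by the constitutive viral 35S promoter, and have no PIF3 of their own because of the *pif3-3* null mutation. They are 1 transgenic line, in which PIF3 is made outside its own promoter's control. WT seedlings lack the epitope and are the negative control for the same anti-Myc antibody. Before darkness, seeds of both genotypes received 3 h of white light (21°C) followed by 15 min of far-red light, and 4 immunoprecipitates were pooled into each library.

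Actin is the subunit of the filaments that carry organelles and vesicles through plant cells and that guide the direction of cell growth. In *Arabidopsis*, a vegetative class of actin genes is used in leaves, stems, roots and seedlings, and a reproductive class mainly in pollen, ovules and young embryos. *ACT2*, *ACT7* and *ACT8* are the vegetative genes: *ACT2* is needed for normal root hairs, *ACT7* responds to auxin and is needed for normal germination and root growth, and *ACT8* is the closest relative of *ACT2*. *ACT1*, *ACT3*, *ACT4*, *ACT11* and *ACT12* are the reproductive genes, in which *ACT1* and *ACT3* form one close pair and *ACT4* and *ACT12* another. Several actin genes, *ACT2* and *ACT7* above all, serve as reference genes in quantitative PCR. PIF3 is a basic helix-loop-helix factor that holds dark-grown seedlings in their etiolated form and binds the G-box and the related PBE-box. The peak lists hold no transcript levels, so that actin expression in these seedlings was not analysed here.

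**Figure D1:**
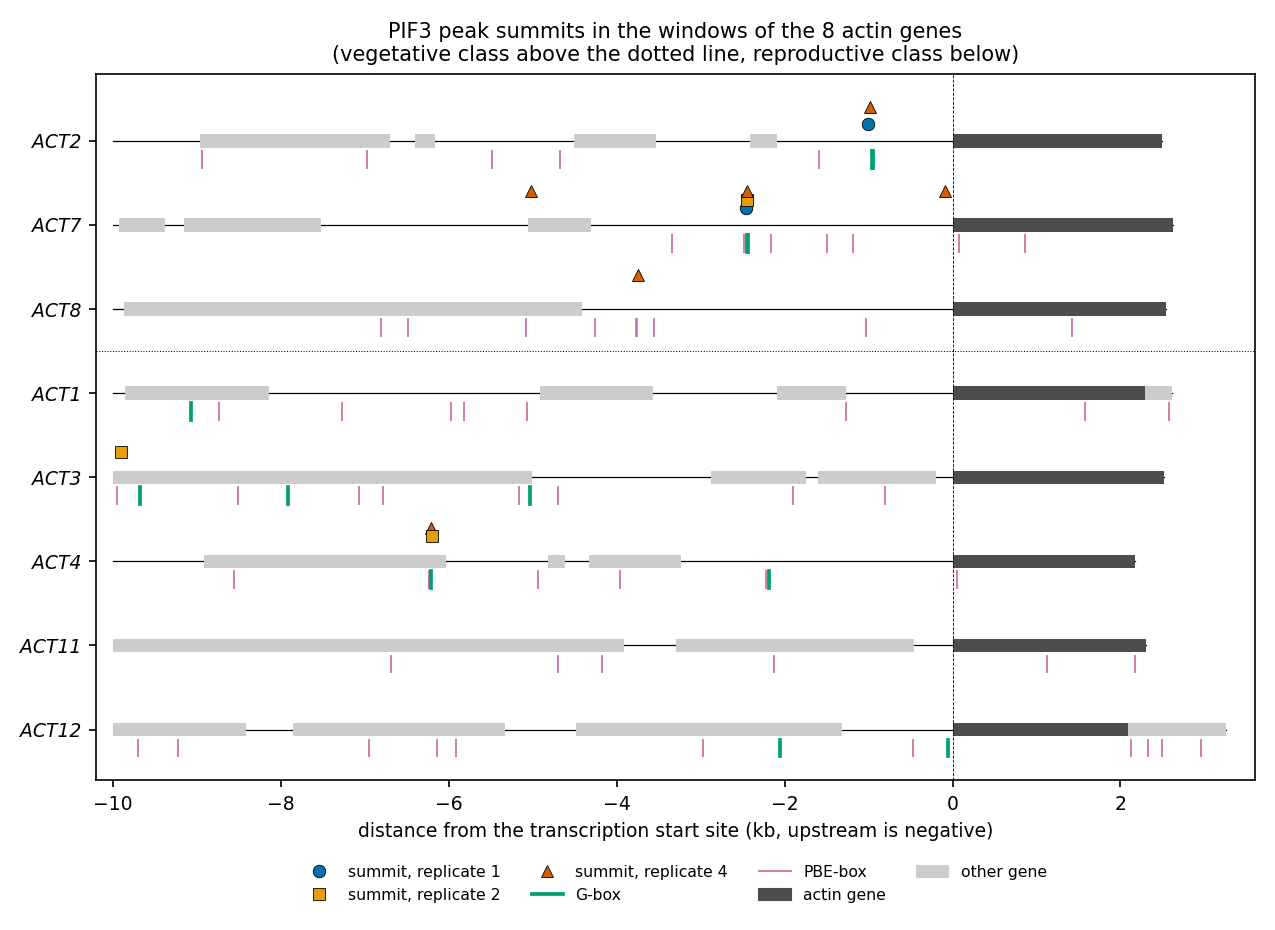
Each line is the window of 1 actin gene from 10 kb upstream of the TSS (0) to the gene end, with distance in kb on the horizontal axis, summits as colored symbols by replicate, G-boxes and PBE-boxes as vertical marks below the line, the actin gene as a dark bar and other genes as pale bars. The 3 vegetative genes (upper lines) hold 8 summits, of which 7 lie within 5 kb of the TSS, and the 5 reproductive genes (lower lines) hold 3 summits, none within 5 kb.

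The sequences under the summits are shown first because the results turn on the motifs in them, which are G-boxes at *ACT2*, PBE-boxes at *ACT8* and both at *ACT7* and at the reproductive gene *ACT4*. Each is the stretch centered on the mean summit of a site, or, for *ACT8*, on a summit found in 1 replicate only, with 100 bp on either side, read 5′ to 3′ on the plus strand of TAIR10.1 as held by RefSeq, which is also the strand of all 8 actin genes. The capitals mark G-boxes (CACGTG, its own reverse complement) and PBE-boxes (CACATG, or CATGTG where it lies on the minus strand). The run CACATGTG upstream of *ACT4* is a pair of PBE-boxes on opposite strands that overlap.
ACT2, chr3:6473616-6473816: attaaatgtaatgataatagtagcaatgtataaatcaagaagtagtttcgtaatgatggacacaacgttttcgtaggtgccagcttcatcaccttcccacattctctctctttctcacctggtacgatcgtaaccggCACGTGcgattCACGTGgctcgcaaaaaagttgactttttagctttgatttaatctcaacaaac
ACT7, chr5:3049508-3049708: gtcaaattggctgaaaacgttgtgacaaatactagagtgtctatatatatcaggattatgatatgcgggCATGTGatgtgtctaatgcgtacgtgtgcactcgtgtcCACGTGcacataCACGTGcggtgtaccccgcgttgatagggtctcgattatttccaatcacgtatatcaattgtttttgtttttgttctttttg
ACT8, chr1:18211951-18212151: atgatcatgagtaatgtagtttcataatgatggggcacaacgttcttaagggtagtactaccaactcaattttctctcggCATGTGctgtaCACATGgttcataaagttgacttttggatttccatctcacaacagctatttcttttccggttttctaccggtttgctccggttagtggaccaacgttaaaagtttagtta
ACT4, chr5:23943356-23943556: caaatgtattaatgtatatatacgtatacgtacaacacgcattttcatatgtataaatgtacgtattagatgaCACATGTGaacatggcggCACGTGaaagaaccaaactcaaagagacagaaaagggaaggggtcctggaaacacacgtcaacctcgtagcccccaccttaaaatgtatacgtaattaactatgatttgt

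The lists differed in size, with 696, 2517, 526 and 3089 peaks for replicates 1 to 4. No peak was an exact copy, with the same start, end and tags, of a peak in another list. Peaks of different lists at nearly the same place are treated as sites below. To call them, the authors set every P3M library against its same-numbered WT library in MACS, at a p-value cutoff of 1e-05. A peak carries the count of P3M tags in it and a fold enrichment over the local background, made with the WT library as the control. It also carries a score that grows on a log10 scale as the p-value falls (50 at the cutoff). The last value is the false discovery rate (FDR) that MACS derives by exchanging P3M and WT. The median peak held 87, 109, 159.5 and 189 tags in replicates 1 to 4. The lists hold no library totals and no WT tags, so that library depth is unknown here, and each list has its own scale. Ranks within a list, given as a percentile in which 100 is the highest, are therefore printed beside tags, folds and scores, and means or medians of deposited values over several lists mix these scales. An FDR of 100% was given to 673, 0, 525 and 2164 peaks of replicates 1 to 4, so that this rate is not on one scale over the lists. The absence of a peak from a list means that none was called there, not that no tags were present.

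Counted by list, 2 of the 8 actin genes had a summit in their window in replicate 1, against 7.47% of all protein-coding genes. In replicate 2 the count was 3 of 8 genes, against 25.8% of all genes. In replicate 3 it was 0 of 8 genes, against 5.08%, and in replicate 4 it was 4 of 8 genes, against 27.0%. Over all lists together, 5 of 8 actin genes had a summit (*ACT2*, *ACT7*, *ACT8*, *ACT3* and *ACT4*), against 41.7% of protein-coding genes, so that a peak from a single list within such a wide window was common. Windows of neighboring genes overlap, and 1 peak could therefore count for several genes. A site, which in the study needs summits of 2 or more replicates closer than 100 bp to each other, lay in the window of 3 of the 8 actin genes (*ACT2*, *ACT7* and *ACT4*), against 10.7% of protein-coding genes. A gene was PIF3-bound if an intergenic site with a G-box or PBE-box lay within 5 kb upstream of its TSS with no other annotated gene between, and 2 of the 8 actin genes (*ACT2* and *ACT7*) met this rule, against 2.15% of protein-coding genes and 1.81% of all 37899 nuclear genes. The call of *ACT2* was lost without replicate 1 or without replicate 4, which left 1 bound gene, and at a p-value limit of 1e-10 there were 0 bound genes. Without replicate 4, only 1 of the 3 sites, that of *ACT7*, was left. With 8 genes chosen for their peaks, these counts were read as a description only.

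*ACT2* (AT3G18780, chromosome 3, 6474710 to 6477204) had a peak in replicates 1 and 4. In replicate 1, its peak at chr3:6473485-6473937 held 79 P3M tags (exact Poisson 95% interval 62.5 to 98.5, which, as for every interval here, covers counting error only) and had a fold of 6.18 and a score of 79.7. In replicate 4, its peak at chr3:6473206-6474002 held 262 tags (231 to 296) and had a fold of 3.65 and a score of 71.5. The peaks ranked in opposite ways: the tags stood at percentile 35.7 of replicate 1 and 71.7 of replicate 4, whereas the fold stood at percentile 77.8 of replicate 1 (rank 155 of 696) and 18.3 of replicate 4 (rank 2521 of 3089). Each had an FDR of 100%, and neither reached a p-value of 1e-10, a score of 100. The summits lay 1003 and 986 bp upstream of the TSS, 17 bp apart, in the 2095 bp of intergenic DNA between *ACT2* and the non-coding gene AT3G03775. The mean fold of the site was 4.92 ± 1.79 (SD, n = 2 replicates), and 30 of the 77 sites found in replicates 1 and 4 alone had a lower mean fold, with a median of 5.11 over these sites.

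*ACT7* (AT5G09810, chromosome 5, 3052062 to 3054691) had the most peaks, 5, at 3 places. Its site lay 2454 bp upstream of the TSS and was found in replicates 1, 2 and 4, with summits that spanned 12 bp. In replicate 1, the peak at chr5:3049320-3049806 held 71 tags (55.5 to 89.6) with a fold of 3.80 and a score of 60.7. In replicate 2, the peak at chr5:3049363-3049821 held 90 tags (72.4 to 111) with a fold of 5.76 and a score of 98.6. In replicate 4, the peak at chr5:3049268-3049884 held 222 tags (194 to 253) with a fold of 6.66 and a score of 281. The folds stood high in replicates 2 and 4, at percentiles 87.9 and 81.3, and low in replicate 1, at percentile 26.6, and the tags stood at percentiles 20.1, 29.4 and 61.1 of replicates 1, 2 and 4. The FDR was 100% in replicate 1, 48.3% in replicate 2 and 42.1% in replicate 4. The mean fold of the site was 5.41 ± 1.46 (SD, n = 3 replicates), and 63 of the 141 sites found in the same 3 lists had a lower one, with a median of 5.54. By fold, neither the *ACT2* nor the *ACT7* site thus stood above the middle of the sites with the same replicates.

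The other *ACT7* peaks were called in replicate 4 alone. One of them, at chr5:3051724-3052431, reached over the TSS with a summit 84 bp upstream of it, and held 198 tags (171 to 228) with a fold of 2.76, which was at percentile 1.55 of that list, and a score of 54.9, close to the calling cutoff of 50. No G-box or PBE-box lay near its summit, although a PBE-box inside the peak started 80 bp downstream of the TSS. The other, at chr5:3046816-3047298, with 105 tags (85.9 to 127) and a fold of 5.41, had its summit 5018 bp upstream of *ACT7*, in an exon outside the coding sequence and 33 bp inside the TSS of *IDL3*, which encodes a small peptide of the family of the abscission signal IDA. Near this summit, too, there was no G-box or PBE-box, and the FDR, like that of the peak at the TSS, was 100%.

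*ACT8* (AT1G49240, chromosome 1, 18215800 to 18218339) had 1 peak, in replicate 4. This peak, at chr1:18211789-18212335, held 168 tags (144 to 195) with a fold of 4.54, a score of 64.8 and an FDR of 100%. Its tags and fold stood near the middle of the list, at percentiles 41.8 and 44.7, and its score stood lower, at percentile 22.2. The summit lay 3749 bp upstream of the TSS, in the 4409 bp of intergenic DNA between *ACT8* and AT1G49225. As the peak was found in 1 list, it is no site, and *ACT8* was not PIF3-bound by the rule. A second peak of replicate 4 lay just outside the window of *ACT8*, with its summit 10090 bp upstream of the TSS, and held 200 tags with a fold of 8.61.

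Among the reproductive genes, *ACT4* (AT5G59370, chromosome 5, 23949661 to 23951837) had the only site. Replicate 2 had a peak at chr5:23943193-23943672 that held 112 tags (92.2 to 135) with a fold of 7.46 and a score of 168. Replicate 4 had a peak at chr5:23943162-23943725 that held 237 tags (208 to 269) with a fold of 9.49 and a score of 409. These were the highest folds and scores of the actin peaks within their lists, at percentiles 96.2 and 93.8 for the fold and 92.1 and 91.1 for the score, and their FDRs of 13.6% and 16.4% were the lowest of the 11. The mean fold of the site was 8.48 ± 1.44 (SD, n = 2 replicates), higher than in 337 of the 342 sites of replicates 2 and 4 alone, of which the median was 4.96.

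The *ACT4* site lay 6205 bp from the actin TSS and within another gene. Its summits, 5 bp apart, fell near the 3′ end of AT5G59350, which encodes an uncharacterized protein, 2708 and 2713 bp inside the TSS of that gene, which is 2881 bp long. The summit of replicate 4 lay in the coding sequence and that of replicate 2 in an exon outside it. The TSSs of the non-coding gene AT5G08915 and of AT5G59360, which encodes an uncharacterized protein, lay between this site and *ACT4*. The site was therefore neither intergenic nor the nearest upstream feature of *ACT4*, and no gene was bound through it.

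*ACT3* (AT3G53750, chromosome 3, 19915257 to 19917775) had 1 peak, in replicate 2, at the outer edge of the window. This peak, at chr3:19905016-19905554, held 101 tags (82.3 to 123) with a fold of 3.41, a score of 67.7 and an FDR of 68.4%, and its fold stood at percentile 24.3 of the list. With its summit 9900 bp upstream of the TSS, it was the actin peak just inside the limit of 10 kb. It fell in the coding sequence of *AGD6*, which encodes a GTPase-activating protein of ARF GTPases, 233 bp inside the TSS of that gene. Between it and *ACT3* lay the TSSs of *AGD6*, of *CHX20*, which encodes a cation/H+ exchanger, of AT3G53730, which encodes a histone, and of AT3G53740, which encodes a ribosomal protein of the L36e family.

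No peak of any list lay in the windows of *ACT1* (AT2G37620, chromosome 2, 15778941 to 15781561), *ACT11* (AT3G12110, chromosome 3, 3857780 to 3860089) or *ACT12* (AT3G46520, chromosome 3, 17128211 to 17131466). The nearest summits upstream were 58627 bp from the *ACT1* TSS, 31663 bp from that of *ACT11* and 119780 bp from that of *ACT12*. Downstream, the nearest summits lay closer. They were 4349 bp past the end of *ACT1* in replicate 4 (101 tags, fold 4.65), 2943 bp past the end of *ACT11* in replicate 2 (156 tags, fold 4.23) and 7732 bp past the end of *ACT12* in replicate 2 (114 tags, fold 3.52). No summit lay inside the body of any of the 8 actin genes.

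**Figure D2:**
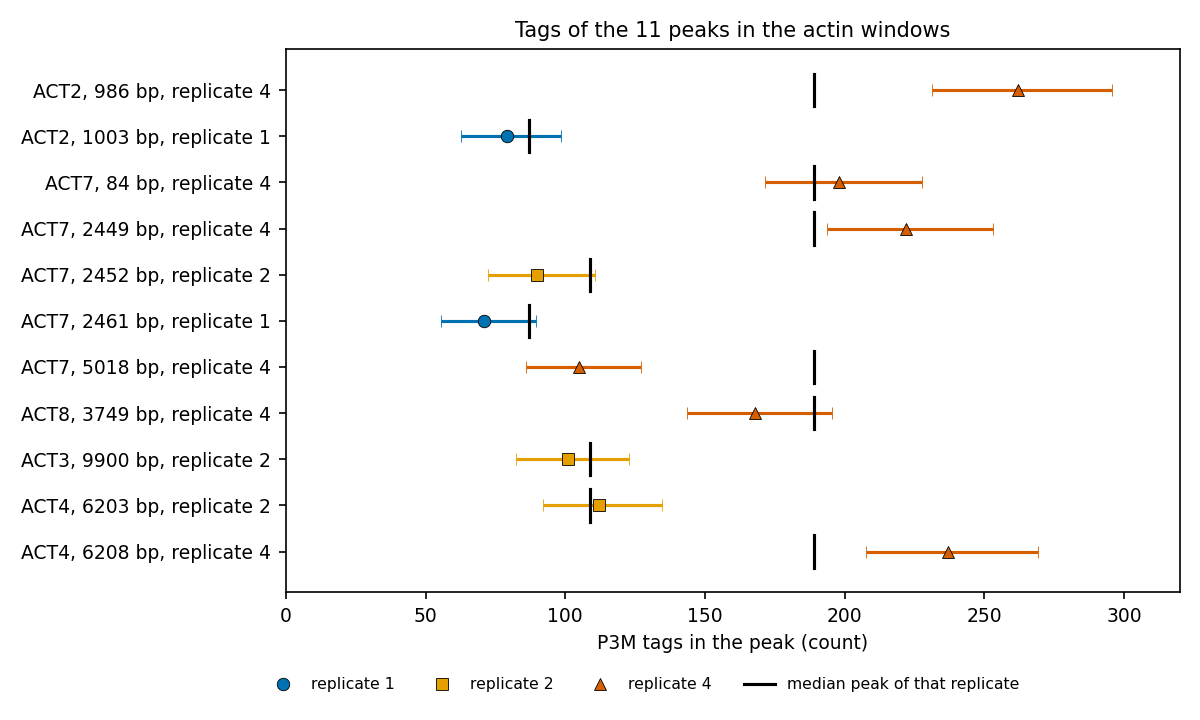
P3M tags (horizontal axis, count) in each of the 11 peaks, named by the gene, the distance upstream of its TSS and the replicate, with bars for exact Poisson 95% intervals and black marks for the median peak of the same list. Values ran between 71 and 262 tags, and the 71 and 79 tags of replicate 1 and the 262 tags of replicate 4 each have to be read against the median of their own list, 87 and 189.

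Only reads unique in the nuclear genome were kept, so that sequence shared between actin genes could carry no tags. Of all 36-base words in the 10 kb upstream, 98.9 to 100% had no second exact match in the genome for each of the 8 genes, and inside the genes 97.9 to 100% had none. *ACT8*, at 98.9%, was the lowest of the 8 upstream regions. The 3 genes without a peak stood at 100% (*ACT1*), 99.96% (*ACT11*) and 99.4% (*ACT12*). Matches with mismatches, of which up to 2 were allowed in the alignment, were not counted.

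Set side by side, the vegetative and reproductive classes differed in where their peaks lay, and their tags overlapped. All 3 vegetative genes had a peak, against 2 of the 5 reproductive genes and 41.7% of all protein-coding genes, and the peaks numbered 8 and 3. In the vegetative class, 2 genes were PIF3-bound, and in the reproductive class 0 were, against 2.15% of all protein-coding genes. Of the vegetative peaks, 7 of 8 lay within 5 kb of the TSS, with the other at 5018 bp, and of the reproductive peaks 0 of 3 did. A place called in several replicates counts once for each of them. The share of all peaks this close to a TSS was not counted, and the genes were chosen by the positions of these same peaks. These counts are therefore a description only. Tags ranged between 71 and 262 with a median of 136.5 in the vegetative peaks, and between 101 and 237 with a median of 112 in the reproductive peaks. These tags come from lists of different scale, and within the lists the order turned, with a median percentile of 38.7 for the tags of the vegetative peaks and 52.7 for those of the reproductive peaks. The fold had a median of 4.98 (2.76 to 6.66) in the vegetative peaks and 7.46 (3.41 to 9.49) in the reproductive peaks, and its median percentile was 54.9 and 93.8. These medians rest on few places. Of the 3 reproductive peaks, 2 were calls of the *ACT4* site, which lay within another gene, and they set both reproductive medians of the fold. Of the 8 vegetative peaks, 5 were of *ACT7*. An FDR of 100% was given to 6 of the 8 vegetative peaks and to 0 of the 3 reproductive peaks, of which replicate 2, a list with no FDR of 100%, gave 2.

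**Figure D3:**
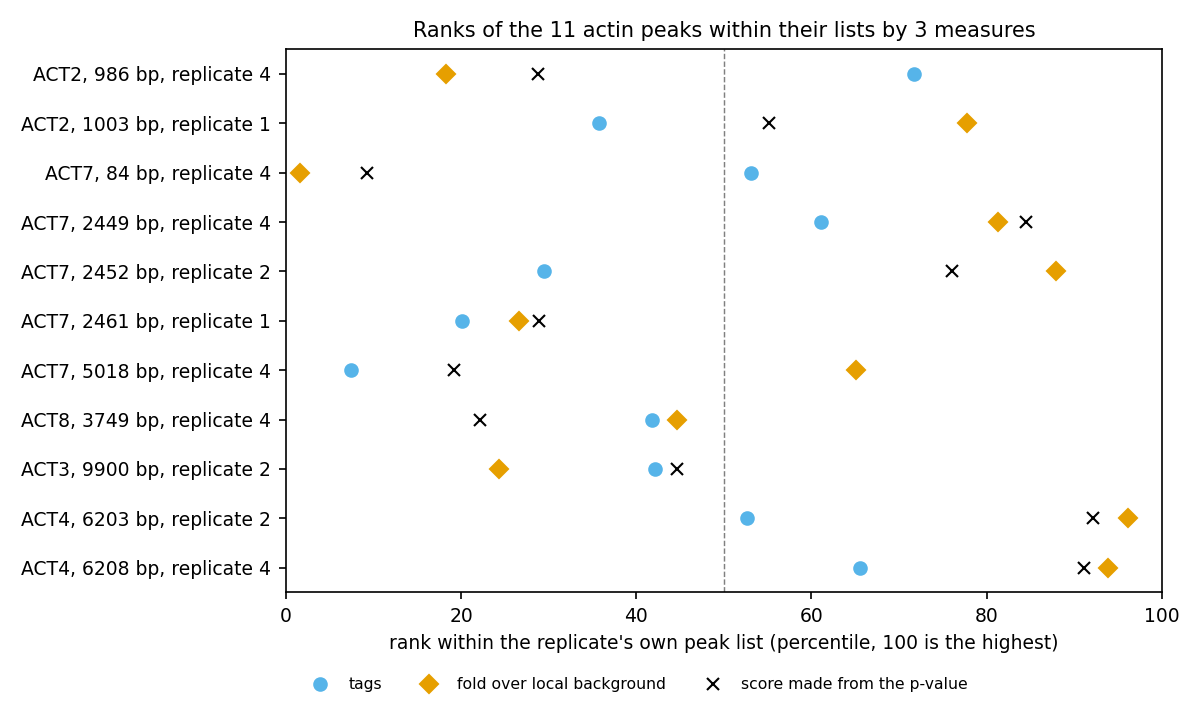
Rank of each of the 11 actin peaks within its own list (horizontal axis, percentile, 100 highest) by tags (circles), by fold over the local background (diamonds) and by the score made from the p-value (crosses). The *ACT4* peaks stand above percentile 90 by fold and score, whereas the *ACT2* peak of replicate 4 stands at percentile 71.7 by tags and 18.3 by fold.

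The classes also differ in the DNA in front of the genes, which bears on where an intergenic peak can lie. The distance from the actin TSS to the next annotated gene upstream was 2095 bp for *ACT2*, 4308 bp for *ACT7* and 4409 bp for *ACT8*. It was 1267 bp for *ACT1*, 190 bp for *ACT3*, 3230 bp for *ACT4*, 460 bp for *ACT11* and 1313 bp for *ACT12*. The vegetative genes thus had from 2095 to 4409 bp and the reproductive genes from 190 to 3230 bp, and only *ACT4* of the reproductive class overlapped the vegetative range. A site that counts as intergenic and free of other genes needs such DNA, and the part of its length in the difference between the classes was not tested.

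G-boxes were not lacking from the windows of the reproductive genes. The windows held 2 G-boxes for *ACT2*, 2 for *ACT7* and 0 for *ACT8*, and 1 for *ACT1*, 3 for *ACT3*, 2 for *ACT4*, 0 for *ACT11* and 2 for *ACT12*, against a median of 1 in the windows of all protein-coding genes, of which 73.5% held at least 1. Of the 4 G-boxes in vegetative windows, 4 lay less than 100 bp from a summit, and of the 8 in reproductive windows 1 did, the box of the *ACT4* site. In the genome, 1600 of 14508 G-boxes (11.03%) lay as close to a summit of any list. In the intergenic DNA directly upstream, the vegetative genes held 4 G-boxes, all near a summit, and the reproductive genes 2, neither of them near one. These 2 were a G-box 2181 bp upstream of *ACT4* and one 51 bp upstream of *ACT12*, where no list had a peak. The 4 vegetative boxes were those of the *ACT2* and *ACT7* sites, and the genes were chosen by the positions of such peaks. The share of G-boxes near a summit in the intergenic DNA of all genes was not counted.

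PBE-boxes were more frequent and less often near a summit. The vegetative windows held 22, of which 3 lay near a summit, and the reproductive windows 40, of which 3 did. Single windows held from 6 (*ACT2* and *ACT11*) to 11 (*ACT12*), against a median of 6 in all protein-coding genes. In the genome, 1465 of 61674 PBE-boxes (2.38%) lay near a summit. In the intergenic DNA directly upstream, the vegetative genes held 11 PBE-boxes with 3 near a summit, and the reproductive genes 2 with 0 near one. For PBE-boxes, too, the share in the intergenic DNA of all genes was not counted. As windows were chosen around known peaks, none of these shares was tested.

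At the summits, 9 of the 11 actin peaks had a G-box or PBE-box, against 51.0% of all peaks. A G-box lay at 7 of the 11, against 31.9% of all peaks, and a PBE-box at 7 of the 11, against 26.5%. These counts take each place once for every replicate that called it, and are not counts of separate places. The 7 peaks with a G-box were all calls of the 3 actin sites, found in 2 (*ACT2*), 3 (*ACT7*) and 2 (*ACT4*) replicates. The *ACT7* and *ACT4* sites likewise recur among the peaks with a PBE-box. The peaks with neither were the *ACT7* peaks of replicate 4 at 84 and 5018 bp. All 3 actin sites held a G-box, against 50.1% of the 1064 sites and 2.28% of the 592765 windows of the same length into which the nuclear genome was divided, and 2 of the 3 held a PBE-box, against 35.6% of sites and 9.55% of windows. A match to these letters is a description of the sequence and does not show which base PIF3 contacts.

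**Figure D4:**
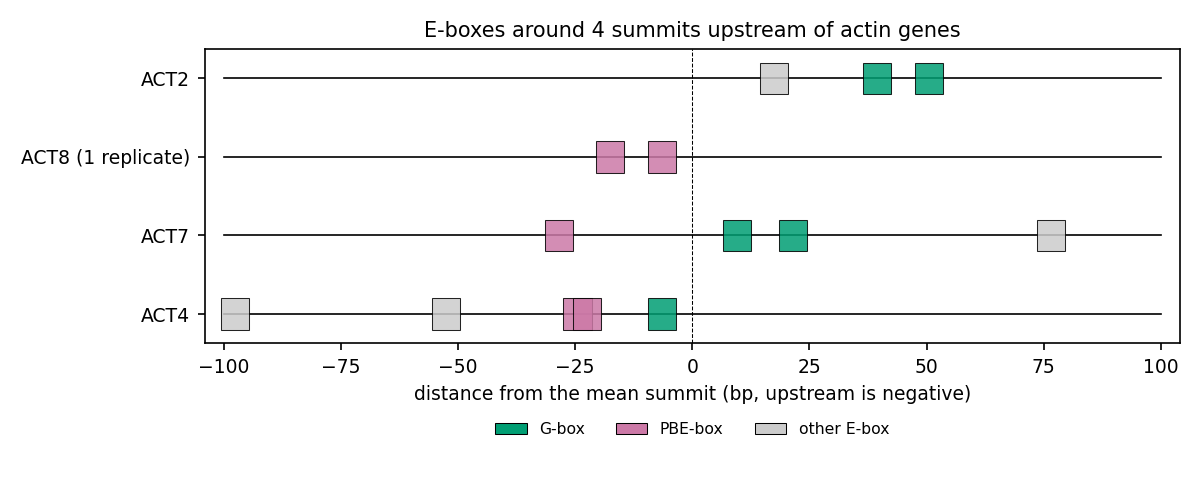
Positions of G-boxes, PBE-boxes and other E-boxes (CANNTG) within 100 bp on either side of the summit upstream of 4 actin genes, with distance from the mean summit in bp on the horizontal axis (0 is the summit). The G-box pairs of *ACT2* and *ACT7* lie downstream of the summit, starting at 37 and 7 bp, and the PBE-box pair of *ACT8* lies upstream of it, with its nearest base at 4 bp.

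Under a summit upstream of each of the 3 vegetative genes, G-boxes or PBE-boxes came in a pair. This holds for the sequences printed above, and the other *ACT7* peaks had neither motif near their summits. The *ACT4* site of the reproductive class also held 2 PBE-boxes, which overlap, beside its G-box. In *ACT2*, the G-boxes started 11 bp apart with 5 bp between them, the first 957 bp upstream of the TSS. In *ACT8*, a pair of PBE-boxes had the same spacing, 11 bp from start to start, the first 3769 bp upstream of the TSS. In *ACT7*, the G-boxes started 12 bp apart with 6 bp between them, the first 2447 bp upstream of the TSS, and a PBE-box lay 26 bp on the other side of the summit. More than 1 G-box was found in 166 of the 1064 sites (15.6%) and more than 1 PBE-box in 77 (7.24%). A spacing of 11 or 12 bp was found for G-boxes in 23 sites (2.16%) and 0.0216% of windows, and for PBE-boxes in 10 sites (0.940%) and 0.0175% of windows. The *ACT8* peak is no site. Of the 2095 peaks of replicate 4 in no site, 97 (4.63%) had more than 1 PBE-box and 5 (0.239%) had PBE-boxes so spaced. In the genome, both boxes were near a summit in 34 of the 134 G-box pairs so spaced (25.4%) and in 18 of the 109 PBE-box pairs (16.5%). The spacing was examined after the sequences had been seen, and no test was made of it.

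The pairs are shown next to each other because the *ACT2* and *ACT8* blocks line up base by base. Each has the pair with 3 bases on either side, with the boxes in capitals.
ACT2, chr3:6473750-6473772: cggCACGTGcgattCACGTGgct
ACT8, chr1:18212028-18212050: cggCATGTGctgtaCACATGgtt
ACT7, chr5:3049612-3049635: gtcCACGTGcacataCACGTGcgg
Of the 23 positions, *ACT2* and *ACT8* shared 17 and differed at 6. Counted from 1 at the first base of the first *ACT2* box, with the *ACT2* base before the number and the *ACT8* base after it, the differences were C3T, G8T, A9G, T11A, G15A and C19T. Of these, C3T and G15A lay in the boxes and made each G-box of *ACT2* a PBE-box in *ACT8*.

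Likeness between *ACT2* and *ACT8* went on past the boxes. Over the sequences printed above, the local alignment of *ACT2* and *ACT8* had 105 identical bases of 131 aligned (80.2%) and a score of 114. The other 5 pairs among the 4 sequences had 57.5 to 65.3% identical bases and scores of 60 to 86. Gaps are not among the aligned bases. Both hold the run aaagttgactttt of 13 bases downstream of the boxes, at chr3:6473779-6473791 for *ACT2* and chr1:18212054-18212066 for *ACT8*, and the longest run shared by any other pair was 10 bases. Set against the 10 kb upstream of the 7 other actin genes, the *ACT2* sequence scored highest in *ACT8* (39, with 26 of 28 aligned bases identical), and 23 to 29 in the other 6 genes. These scores are on another scale than those above. The *ACT8* match lay 3834 bp upstream of the TSS and did not include the box pair. The summits at these like sequences lay 986 to 1003 bp upstream of the TSS in *ACT2* and 3749 bp upstream in *ACT8*, and the peak was called in replicates 1 and 4 at the G-box pair of *ACT2* and in replicate 4 alone at the PBE-box pair of *ACT8*. In replicate 4, the only list with both, the *ACT2* peak held 262 tags and the *ACT8* peak 168, with intervals of 231 to 296 and 144 to 195 that did not overlap. The *ACT2* peak was longer, 797 bp against 547 bp, and per kb of peak the tags came to 329 for *ACT2* and 307 for *ACT8*. The fold was 3.65 for *ACT2* and 4.54 for *ACT8*. The order of the pair therefore depended on the measure, and with 1 list no replicate error can be given for it. These alignments were chosen after the values had been seen.

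The sites most like the actin sites were sought among those found in the same lists, by the root mean square difference of the within-list percentiles of their tags. For *ACT2*, over 2 lists and 76 other sites, the genes bound through the 3 nearest sites were AT1G34620 and AT1G34630 (difference 3.31 points) and AT5G54520 and AT5G54530 (4.38 points), and the nearest of all (1.39 points) bound no gene. The site between AT5G54520 and AT5G54530 held 2 G-boxes, as the *ACT2* site does. For *ACT7*, over 3 lists and 140 other sites, they were AT5G48540, of a receptor-like kinase related family (6.73 points), *GYRB3* and AT5G04120 (8.18 points), and *GH9C3*, which encodes a glycosyl hydrolase (8.83 points). The *GH9C3* site held 2 G-boxes and 2 PBE-boxes, against 2 and 1 at the *ACT7* site. For *ACT4*, over 2 lists and 341 other sites, only the third of the nearest sites bound a gene, the non-coding AT3G06125 (2.22 points).

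Genes whose products work on actin filaments, and other cytoskeleton and reference genes, were counted in the same windows. Of 61 such genes in 6 lists, 8 had a site in the window (13.1%), against 10.7% of all protein-coding genes, and 1 was PIF3-bound (1.64%), against 2.15%. A site was found for 0 of 8 actin-related proteins, for 2 of 5 profilins (*PRF2* and *PRF4*), which bind actin monomers, and for 1 of 11 actin-depolymerizing factors (*ADF11*), which sever filaments. It was found for 2 of 13 other actin-binding proteins (the fimbrin *FIM1* and the villin *VLN2*, which bundle filaments), for 2 of 15 tubulins (*TUB1* and *TUB5*), the subunits of microtubules, and for 1 of 9 other reference genes of quantitative PCR (*SAND*). Over the 6 lists together these shares were near those of all genes, and single lists of 5 to 15 genes are too short to be read against them.

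The bound gene among them was *FIM1* (AT4G26700), with a site centered on base 13461004 of chromosome 4, 2093 bp upstream of the TSS, that held 1 G-box. Its peaks held 79, 154 and 276 tags in replicates 1, 3 and 4, with folds of 5.83, 5.02 and 9.84. The FDR was 100% in replicates 1 and 3 and 0.87% in replicate 4, lower than that of any actin peak. It was found in replicate 3, in which no actin gene had a peak.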

How the data were processed

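Per the labels and the methods, the authors processed 36-nt single-end reads with CASAVA 1.7.0, aligned them to TAIR9 with Bowtie 0.12.7, kept reads unique in the nuclear genome and called peaks with MACS 1.4.0rc2, in P3M against WT of the same number. Replicates 1 and 2 were sequenced in 2 runs and replicates 3 and 4 in 1 run. The deposited values are a count of P3M tags, a fold (ratio) over the local background, a p-value score and an FDR in percent for each peak. None was rescaled. Tags per peak and the number of peaks called depend on library depth, which the lists do not give.

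Summits less than 100 bp apart were joined into 1064 sites, whose mean summits fell on the same base as in the site table of the study for all 1064. RefSeq's TAIR10.1 gave genes and sequence. The largest peak ends lay within its chromosomes, and the TAIR9 annotation was not used here. Motifs were sought on both strands less than 100 bp from the summit. The TSS rule was applied as written to TAIR10.1 genes, without the authors' inspection by hand, so that the 685 genes it gave, and the background shares made from them, are not the authors' own set of bound genes. Intervals of tags are exact Poisson intervals.

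Named genes are the 8 actin genes, genes that hold an actin peak or have their TSS between it and the actin gene, bound members of the gene lists, and genes bound through the 3 sites nearest in tag rank. Genes directly upstream of an actin gene, and list members with a site, were added after the values were seen. The members and lists were chosen with earlier results of these data known. No test was made. Alternatives changed the peak threshold, the replicates, the joining and the window. The procedure was checked on simulated data. Python 3.11.15, numpy 2.4.6, pandas 2.3.3, scipy 1.17.1, Biopython 1.88 and matplotlib 3.10.9 were used.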

Additional observations from a re-analysis of the deposited data

How the results depend on the processing

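With a stricter p-value limit of 1e-10, actin genes with a peak came to 0, 1 and 2 in replicates 1, 2 and 4, vegetative genes with a peak to 1, reproductive genes to 1, genes with a site to 1, sites to 1 (*ACT4*, with a G-box in 1 and a PBE-box in 1) and bound genes to 0. With only peaks at an FDR under 5%, all of these counts were 0. Such an FDR was given to 10 of 696, 115 of 2517, 1 of 526 and 177 of 3089 peaks in replicates 1 to 4. The median score of all peaks was 75.5, 71.2, 80.7 and 104.6 in these lists, against a score of 100 at the stricter p-value limit. When 3 replicates were required, genes with a site, sites, sites with a G-box, sites with a PBE-box and bound genes each came to 1 (*ACT7*). With each replicate left out in turn, genes with a site, sites and sites with a G-box came to 1 to 3, with 1 without replicate 4. Sites with a PBE-box came to 1 to 2, with 1 without replicate 2 and 1 without replicate 4, and bound genes to 1 to 2, with 1 without replicate 1 and 1 without replicate 4. Vegetative genes with a peak came to 2 to 3 and reproductive genes to 1 to 2, with 1 without replicate 2. With a window of 5 kb, genes with a peak came to 1 in replicate 2 and 3 in replicate 4. Vegetative genes with a peak came to 3, reproductive genes to 0, genes with a site to 2 and sites to 2. With a window of 3 kb, genes with a peak came to 1 in replicate 2 and 2 in replicate 4. Vegetative genes with a peak then came to 2, reproductive genes to 0, genes with a site to 2 and sites to 2. Joining summits at 50 or 200 bp or by overlap of peaks gave 3 sites and 2 bound genes, and 3 kb, 50 bp to a motif or protein-coding genes alone left 2 bound genes. The settings that lowered the counts keep fewer peaks, fewer lists or a shorter window, and why single peaks fell out was not tested. No paired analysis was possible because each list already sets P3M against WT of the same number and the counts come from no test. Library depth is unknown, so that a missing peak and a shallow library cannot be told apart.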
